A study of Drosophila melanogaster with 11 samples.

Results

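The fat body of MU12 was compared with that of MU26, 2 of the 5 isofemale strains in the study, with 2 libraries per strain out of 11 in all. An isofemale strain is founded by 1 wild-caught female and kept by mating among her descendants, and those used here came from a German population. The labels give no transgene and no treatment for any strain, and the other libraries came from MU10 (2), MU14 (3) and MU17 (2). All larvae were reared at a density of 250 per vial, and fat bodies were taken from female larvae late in the wandering stage, which were recognised by their gut colour on dyed food at 25 °C. Each library was made from poly-A RNA of a separate pool of dissected fat bodies, so a value describes a pool and not an animal. The study calls the replicates biological, and with 2 of them the p-values measure the spread between such pools only. The question was which genes of the fat body, and which of its known functions, were expressed at another level in MU12 than in MU26.

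The larval fat body stores fat, glycogen and protein for metamorphosis, detoxifies compounds taken up with the food, and secretes storage proteins, immune peptides and growth-regulating hormones into the haemolymph. Heat shock proteins are chaperones that keep other proteins folded, and some of their genes are switched on by heat and other stress within minutes. Cytochrome P450 enzymes, glutathione transferases and UDP-glycosyltransferases act in successive steps of detoxification, in which a compound is first oxidised and then coupled to a small soluble molecule. Cytosolic ribosomal proteins form the protein part of the ribosome and are usually made in fixed proportions to each other.

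Total counts were 39808125 and 35780347 in the MU12 libraries and 36336048 and 34631482 in the MU26 libraries, within the range of 34631482 to 49582725 over all 11, and 10591 to 11311 genes had a count in these 4. The replicates correlated with r = 0.976 in MU12 and 0.979 in MU26 over the log2 CPM of the tested genes. All 8 marker genes of the fat body were expressed, and their summed level was 284510 and 278990 CPM in MU12 and 436200 and 424610 CPM in MU26, most of it from the hexamerin receptor gene Fbp1, which took 20.1% and 16.6% of the counts in MU12 and 28.7% and 26.4% in MU26. The factors that correct the library sizes for such unequal composition (TMM) were 1.07 and 1.03 in MU12 and 0.869 and 0.833 in MU26. Markers of most other organs were low. The summed level was 12.6 to 19.99 CPM for 8 salivary gland genes, 0.380 to 2.12 CPM for 3 tested midgut genes, 4.59 to 16.0 CPM for 3 tested Malpighian tubule genes, 27.6 to 47.5 CPM for 4 tested oenocyte genes and 6.70 to 8.96 CPM for 2 tested male genes, and none of these lists had a called member except the midgut list, whose alphaTry had 0.399 and 0.299 CPM in MU12 and 0.0634 and 0.0694 CPM in MU26. The midgut gene zetaTry and the heart gene tin had 0 counts in the 4 libraries. Muscle genes summed to 119 to 143 CPM, of which Tm1, which other cells also express, made the larger part, and bt was the only called member of 14. Genes of the nervous system summed to 488 to 624 CPM, nearly all from Syt1, and female germ line genes to 98.8 to 175 CPM, mostly from Sxl, which all female cells express. Of these lists cac was called higher in MU26 and aub and orb, each under 2 CPM, higher in MU12. The calls of alphaTry and aub ended when any 1 of the 4 libraries was left out, and those of bt and orb with 3 of them. The only tested prothoracic gland gene was below 1 CPM in the 4 libraries.

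Of 8415 genes tested, 2108 (25.1%) differed between MU12 and MU26 at an adjusted p below 0.05 in the quasi-likelihood test of edgeR (Benjamini-Hochberg adjusted over all tested genes), and are called here. Of the tested genes, 13.2% were called higher in MU12 and 11.9% higher in MU26, and the median log2 difference (MU12 minus MU26) over all of them was 0.01. The median size of a called difference was 1.05 on the log2 scale, or 2.07-fold, and 1101 genes were called with at least a 2-fold difference. In each of the 2108 called genes the 2 MU12 libraries lay on one side of the 2 MU26 libraries, as they did in 4952 (58.8%) of the tested genes. The calls were spread over the genome, with 23.7% of the tested genes called on the X chromosome, 25.4% on arm 2L, 25.5% on 2R, 26.2% on 3L and 23.9% on 3R. On the small dot chromosome, 4, 27 of 71 genes (38%) were called, 17 of them higher in MU26. There were 1322 calls when MU12 replicate 2 was left out and 1358 when MU26 replicate 1 was, while 617 genes were called when the spread was estimated from the 4 libraries alone.

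**Figure D1:**
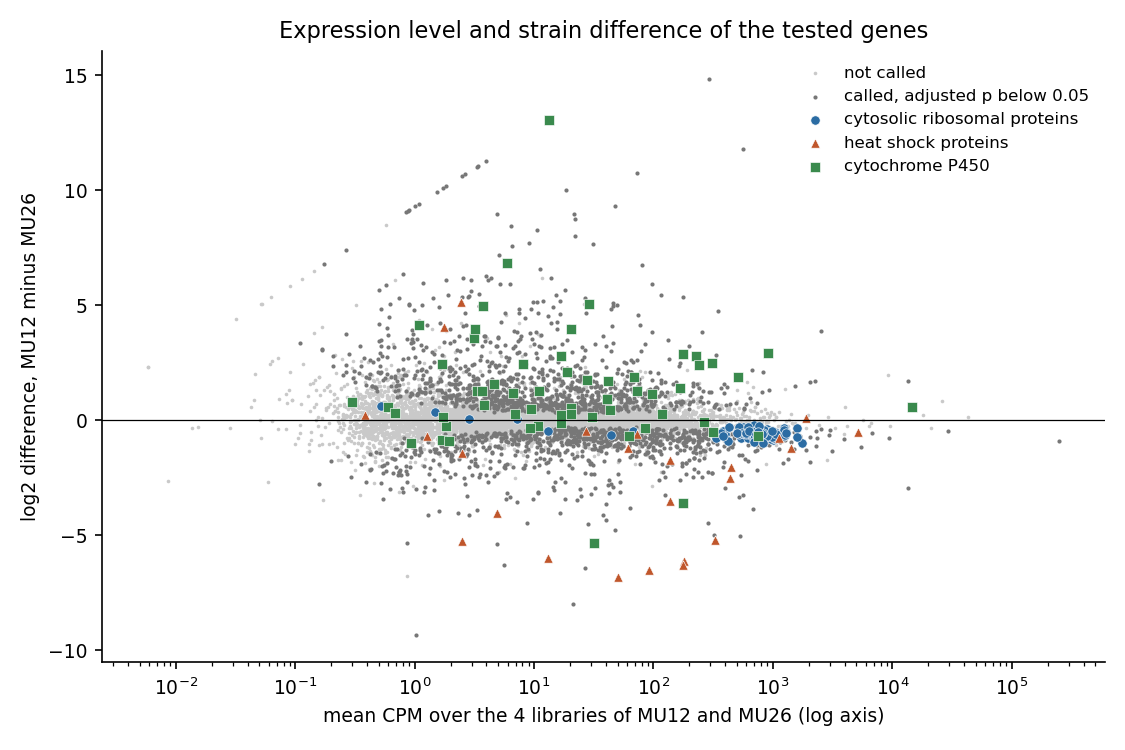
Each point is 1 of 8415 tested genes, with its mean CPM over the 4 libraries of MU12 and MU26 on the horizontal log axis and its fitted log2 difference (MU12 minus MU26) on the vertical axis. Dark points are called, circles are cytosolic ribosomal protein genes, triangles heat shock genes and squares genes of the P450 list. The ribosomal protein genes lie together just below 0, most heat shock genes far below it and many P450 genes above it, while the diagonal row at the upper left holds genes with 0 counts in MU26, whose fitted value depends on the fit and is no measured fold.

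The widest differences were in genes that were all but silent in one strain. CG15728 (X chromosome, 12624292 to 12628445), a gene with no role assigned here, was at 558 and 607 CPM in MU12 and 0 and 0.0347 CPM in MU26, a ratio of 35100 with an exact 95% counting interval of 6290 to 1390000, since its level in MU26 rested on 1 count. Cyp6a17, a P450 gene on arm 2R known for its part in temperature preference, had 14.7 and 38.9 CPM in MU12 and 0 and 0 CPM in MU26, at least 521-fold higher in MU12 when set against a floor of 3 counts over the MU26 libraries (edgeR adjusted p = 0.00046). Its mean level was 11.5 CPM in MU10, 1.75 CPM in MU14 and 13.8 CPM in MU17, and every other strain had counts. CG3397 was at 1332 and 903 CPM in MU12 and 0.127 and 0.520 CPM in MU26, higher in MU12 with a log2 difference of 11.77 ± 0.51 (SE) and an edgeR adjusted p of 1.0e-05, and was also expressed in the other strains, at 282 CPM in MU10, 445 CPM in MU14 and 587 CPM in MU17. For CG15728, Frq1, Dpp10, ss, unc, St2, obst-J and CG10663 it was MU12 that stood out. CG15728 was at 0.0363 CPM in MU10, 0.0332 CPM in MU14 and 0.0327 CPM in MU17. Frq1, which encodes a calcium sensor of the frequenin type, was at 104 and 188 CPM in MU12 and 0.127 and 0.0347 CPM in MU26, higher in MU12 with a log2 difference of 10.73 ± 0.88 (SE) and an edgeR adjusted p of 1.8e-05, and at 0.148 CPM in MU10, 0.109 CPM in MU14 and 0.210 CPM in MU17. Dpp10, which belongs to the dipeptidyl peptidase family, was at 33.2 and 40.7 CPM in MU12 and 0.0317 and 0.0347 CPM in MU26, a ratio of 1110 with a counting interval of 306 to 9150 from 2 counts in MU26. Spineless (ss), a transcription factor gene of antenna and leg development, had 98.2 and 93.2 CPM in MU12 and 0.253 and 0.0347 CPM in MU26 and was thus high in both MU12 libraries (log2 difference 9.30 ± 0.68 SE, edgeR adjusted p = 1.9e-05). The basal body gene unc was at 31.6 and 55.9 CPM in MU12 and 0.0634 and 0.139 CPM in MU26 (log2 difference 8.73 ± 0.77 SE, edgeR adjusted p = 4.0e-05), and the chitin-binding protein gene obst-J at 32.7 and 9.83 CPM in MU12 and 0.0634 and 0.0694 CPM in MU26 (log2 difference 8.26 ± 1.08 SE, edgeR adjusted p = 0.00020), with the 2 MU12 libraries of obst-J well apart. The sulphotransferase gene St2 was at 5.12 and 20.3 CPM in MU12 and 0.0634 and 0 CPM in MU26, a ratio of 367 with a counting interval of 101 to 3030, and CG10663 at 40.8 and 44.8 CPM in MU12 and 0.0634 and 0.104 CPM in MU26 (log2 difference 8.96 ± 1.62 SE, edgeR adjusted p = 0.0010).

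In the other direction, the widest differences among genes of at least 10 CPM were those of CG4250, CG30286, CG15894, Cyp6a13 and the stress-induced chaperones described next. CG30286 was at 0.493 and 0.733 CPM in MU12 and 56.5 and 48.5 CPM in MU26, higher in MU26 with a log2 difference of 6.42 ± 0.19 (SE) and an edgeR adjusted p of 7.8e-07, and the other strains lay between, at 1.44 CPM in MU10, 14.3 CPM in MU14 and 10.6 CPM in MU17. CG15894, on the X chromosome, was at 0.0939 and 0.190 CPM in MU12 and 4.50 and 17.8 CPM in MU26, higher in MU26 with a log2 difference of 6.28 ± 0.83 (SE) and an edgeR adjusted p of 0.00089, while the other strains were as low as MU12, at 0.0549 CPM in MU10, 0.144 CPM in MU14 and 0.131 CPM in MU17. For CG4250 the reverse held, since it was at 0.117 and 0.217 CPM in MU12 and 31.3 and 53.9 CPM in MU26 (log2 difference 7.99 ± 1.38 SE, edgeR adjusted p = 0.0025) and at 40.1 CPM in MU10, 26.4 CPM in MU14 and 116 CPM in MU17, so MU12 was the strain that all but lacked it. The calls of these genes, and of those higher in MU12 above, held when any 1 library was left out. With limma-voom those of CG4250 and St2 ended (adjusted p = 0.0955 and 0.0685).

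Of the 37 lists that are no marker lists, heat shock genes had the lowest median. Of 24 tested genes 17 were higher in MU26 and 2 higher in MU12, against 11.9% and 13.2% of all tested genes, and the median log2 difference was -1.58, against 0.01 over all genes. The stress-inducible Hsp70 genes, which encode the main heat-induced chaperone, differed most. Hsp70Aa was at 6.74 and 3.23 CPM in MU12 and 399.5 and 304 CPM in MU26, higher in MU26 with a log2 difference of 6.14 ± 0.63 (SE) and an edgeR adjusted p of 0.00091. The other strains lay between, at 159 CPM in MU10, 134 CPM in MU14 and 185 CPM in MU17, all far above MU12. Hsp70Ba had 1.06 and 0.706 CPM in MU12 and 92.3 and 106 CPM in MU26, higher in MU26 with a log2 difference of 6.80 ± 0.73 (SE) and an edgeR adjusted p of 0.00083. In both genes every MU26 library was far above both MU12 libraries. The log2 differences of Hsp70Ab, Hsp70Bb, Hsp70Bbb and Hsp70Bc were 6.29 ± 0.64 (SE), 6.02 ± 0.87 (SE), 6.51 ± 0.71 (SE) and 5.25 ± 1.08 (SE), also with MU26 higher. These 6 genes are near-identical copies, and because read pairs that matched several genes were discarded, the level of a single copy is uncertain. Hsp68, a related inducible gene, was at 19.7 and 14.7 CPM in MU12 and 587 and 683 CPM in MU26, higher in MU26 with a log2 difference of 5.21 ± 0.40 (SE) and an edgeR adjusted p of 0.00022. Its mean level was 234 CPM in MU10, 270 CPM in MU14 and 157 CPM in MU17. The co-chaperone gene DnaJ-1, the fly Hsp40, had 31.4 and 11.98 CPM in MU12 and 279 and 223 CPM in MU26, higher in MU26 with a log2 difference of 3.53 ± 0.61 (SE) and an edgeR adjusted p of 0.0061.

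Differences were smaller in chaperones that are also made without stress. Hsc70-4, the main constitutive Hsp70 of the cytosol, was at 954 and 754 CPM in MU12 and 2078 and 1840.3 CPM in MU26, higher in MU26 with a log2 difference of 1.20 ± 0.18 (SE) and an edgeR adjusted p of 0.0024. Hsp83, the fly Hsp90, had 229 and 122 CPM in MU12 and 737 and 697 CPM in MU26, higher in MU26 with a log2 difference of 2.03 ± 0.45 (SE) and an edgeR adjusted p of 0.013. Of the small heat shock proteins, which bind unfolded proteins, Hsp26 was at 159.9 and 100.01 CPM in MU12 and 774 and 700.4 CPM in MU26 (log2 difference 2.50 ± 0.37 SE, edgeR adjusted p = 0.0025) and Hsp67Bc at 0.728 and 0.380 CPM in MU12 and 9.16 and 9.19 CPM in MU26 (log2 difference 4.03 ± 0.68 SE, edgeR adjusted p = 0.0037), both higher in MU26. Hsp23 and Hsp27 did not pass the test, Hsp23 with 6524 and 1954 CPM in MU12 and 7534 and 4575 CPM in MU26, and the MU12 libraries of both lay far from each other. The mitochondrial chaperone genes Hsp60A and Hsc70-5 and Hsf, which encodes the activator of heat shock genes, were higher in MU26 by 1.23 ± 0.27 (SE), 0.62 ± 0.15 (SE) and 0.46 ± 0.12 (SE) log2 units (edgeR adjusted p = 0.011, 0.020 and 0.026). Hsc70-3, the chaperone of the endoplasmic reticulum, was at 1699.5 and 2202 CPM in MU12 and 2062 and 1613 CPM in MU26 and the libraries of the strains overlapped. Hsc70-2 and CG4456 differed in the other direction. Hsc70-2 was at 3.17 and 3.48 CPM in MU12 and 0.158 and 0.243 CPM in MU26, higher in MU12 with a log2 difference of 4.04 ± 0.45 (SE) and an edgeR adjusted p of 0.00043, and CG4456, also named Hsp67Bb, at 5.40 and 4.05 CPM in MU12 and 0.158 and 0.104 CPM in MU26, higher in MU12 with a log2 difference of 5.13 ± 0.49 (SE) and an edgeR adjusted p of 0.00010. MU12 had the lowest mean of the 5 strains in 17 of the 24 genes and MU26 the highest in 15, both in 13, against 21.6% each and 7.06% of all tested genes. The heat shock genes described here other than Hsp68, Hsp23, Hsp70Aa, Hsp70Ab, Hsp70Ba, Hsp70Bb and Hsp70Bbb were chosen after their values were seen. Leaving out 1 library at a time left 13 to 19 heat shock genes called. In leave-one-out fits with edgeR, Hsp83 lost its call without MU12 replicate 2 (edgeR adjusted p = 0.0823) or MU26 replicate 1 (0.0511), Hsp60A without MU12 replicate 2 (0.0725) or MU26 replicate 2 (0.0566) and Hsc70-5 and Hsf without any 1 of the 4 libraries (0.0534 to 0.112). With the 4 libraries alone the calls of Hsp60A, Hsc70-5 and Hsf ended as well. Under limma-voom Hsp70Bc did not pass (adjusted p = 0.13).

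**Figure D2:**
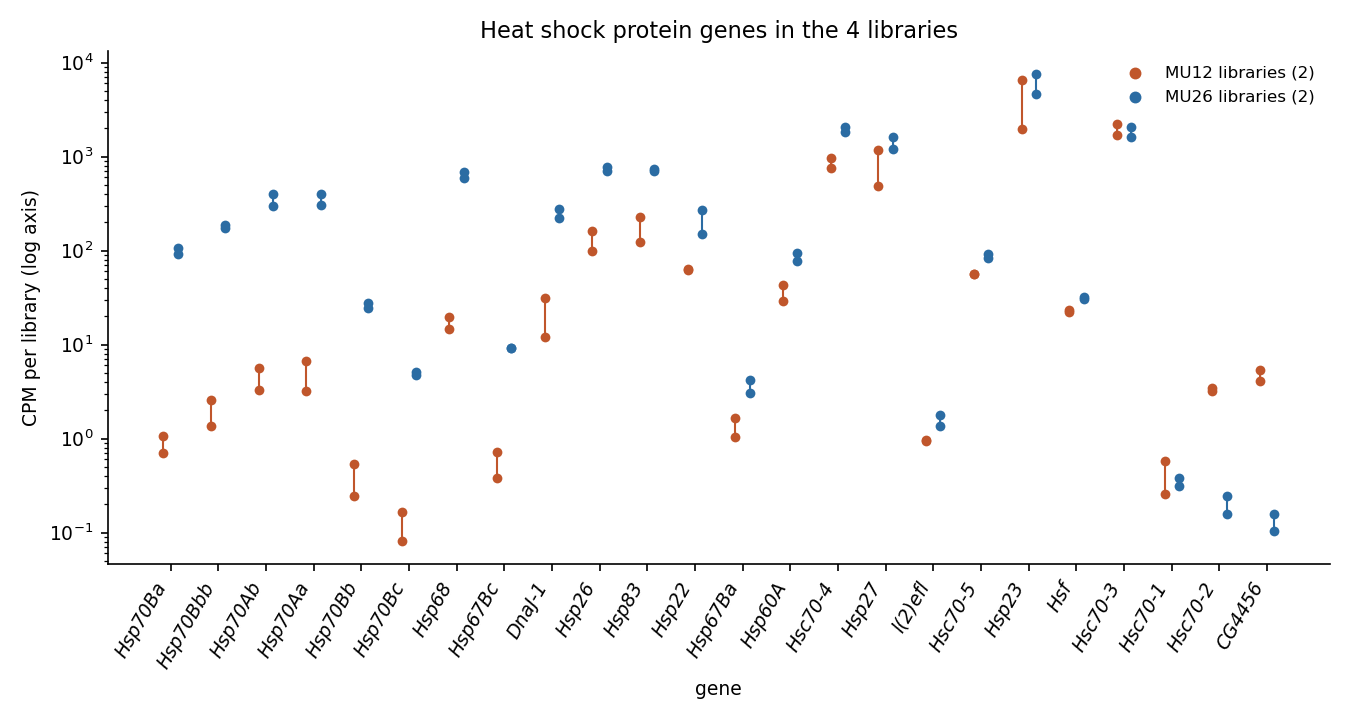
CPM on a log axis of the 24 heat shock genes in each of the 4 libraries, the 2 MU12 libraries on the left of each gene and the 2 MU26 libraries on the right, joined by a line that spans the pair and ordered by log2 difference. From Hsp70Ba to Hsp83 the MU26 points lie well above those of MU12, Hsp23 and Hsc70-3 overlap, and Hsc70-2 and CG4456 are higher in MU12.

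Cytosolic ribosomal protein genes showed small differences in 1 direction. Of 87 tested genes 78 were called (89.7%, against 25.1% of all tested genes), all of them higher in MU26. The median log2 difference was -0.58. Single genes differed by about 1 on the log2 scale at most, and 2 genes, sta and RpL3, by at least 2-fold. The gene sta, which encodes the small subunit protein SA, had 481 and 605 CPM in MU12 and 1045 and 1149 CPM in MU26, higher in MU26 with a log2 difference of 1.01 ± 0.13 (SE) and an edgeR adjusted p of 0.00091. RpL3, whose protein lies at the catalytic centre of the large subunit, was at 1069.6 and 1249.6 CPM in MU12 and 2259 and 2396 CPM in MU26, higher in MU26 with a log2 difference of 1.005 ± 0.12 (SE) and an edgeR adjusted p of 0.00070. RpS9 was at 448 and 491 CPM in MU12 and 871 and 940.4 CPM in MU26 (log2 difference 0.95 ± 0.10 SE, edgeR adjusted p = 0.00041) and RpS20 at 289 and 302 CPM in MU12 and 529 and 567 CPM in MU26 (log2 difference 0.89 ± 0.10 SE, edgeR adjusted p = 0.00056). In these 4 genes the lower MU26 library was above the higher MU12 library. MU26 had the highest mean of the 5 strains in 76 of the 87 genes (87.4%) and MU12 the lowest in 33 (37.9%), against 21.6% each over all tested genes. For 80 of the genes with a mean of at least 100 CPM, the median log2 deviation from the gene's mean over all 11 libraries was -0.31 and -0.18 in the MU12 libraries and 0.31 and 0.42 in the MU26 libraries, and -0.28 and -0.28 in those of MU17. The median of the list was -0.58 with RLE size factors and -0.60 with upper-quartile scaling, and ranged from -0.63 to -0.50 over all alternatives. Fbp1 also took a larger share of the counts in MU26 than in MU12. In MU17 its share was 24.3% and 27.6%, beside median deviations of -0.28 and -0.28 for the ribosomal protein genes. The part of the Fbp1 share in the result was not tested. Leaving out 1 library at a time left 56 to 74 genes called, and 3 were called with the spread from the 4 libraries alone, where sta was not (edgeR adjusted p = 0.0584). The mitochondrial ribosomal protein genes had no such shift. Of 72 tested, 3 were higher in MU12 and 3 in MU26 (8.33% called), with a median of -0.07. Among them mRpL18 was at 1.90 and 1.82 CPM in MU12 and 0.507 and 0.694 CPM in MU26, higher in MU12 with a log2 difference of 1.63 ± 0.26 (SE) and an edgeR adjusted p of 0.0025, and mRpL33 at 5.61 and 4.89 CPM in MU12 and 8.68 and 7.84 CPM in MU26, higher in MU26 with a log2 difference of 0.65 ± 0.13 (SE) and an edgeR adjusted p of 0.0074. Without MU12 replicate 2 there were 3 calls in this list, and with the 4 libraries alone those of mRpL18 and mRpL33 ended (edgeR adjusted p = 0.0534 and 0.0985).

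**Figure D3:**
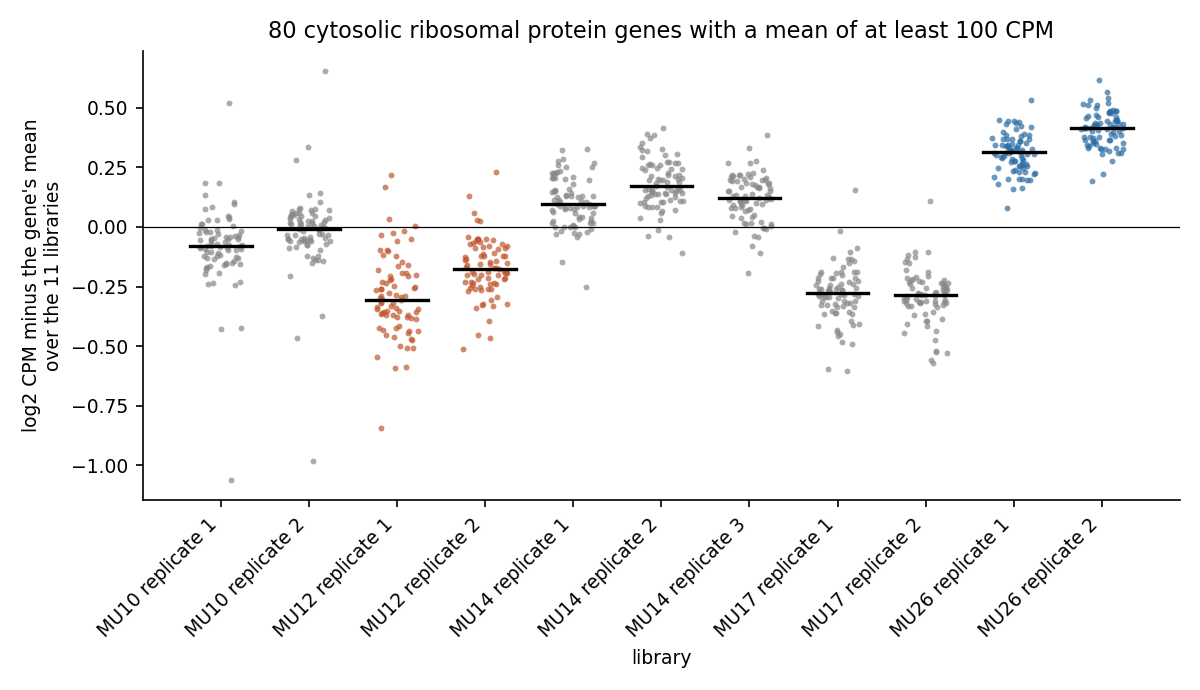
Log2 CPM of 80 cytosolic ribosomal protein genes minus the mean of the gene over all 11 libraries, 1 column per library and 1 point per gene, with the median as a bar. The medians of the 2 MU26 libraries, 0.31 and 0.42, are the highest of the 11, those of MU12, -0.31 and -0.18, lie at the lower end with MU17.

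Among genes of detoxification more were called higher in MU12 than in MU26. The P450 list was drawn up by gene symbol and also holds Cyp1, a cyclophilin gene. Of its 58 tested genes 26 were higher in MU12 and 5 in MU26 (53.4% called, against 25.1% of all tested genes). The median log2 difference was 1.04. MU12 had the highest mean of the 5 strains in 27 of the 58 (46.6%) and MU26 the lowest in 22 (37.9%), against 23.4% and 21.7% of all tested genes. Besides Cyp6a17, Cyp4p1 had 40.1 and 72.2 CPM in MU12 and 1.24 and 2.15 CPM in MU26, higher in MU12 with a log2 difference of 5.05 ± 0.41 (SE) and an edgeR adjusted p of 0.00020. Cyp9b2 was at 236 and 386 CPM in MU12 and 38.1 and 45.9 CPM in MU26, higher in MU12 with a log2 difference of 2.89 ± 0.29 (SE) and an edgeR adjusted p of 0.00043. Cyp4ac2 was at 7.91 and 15.5 CPM in MU12 and 0.0634 and 0.139 CPM in MU26, higher in MU12 with a log2 difference of 6.83 ± 1.38 (SE) and an edgeR adjusted p of 0.0023, and its relative Cyp4ac1 at 24.2 and 52.1 CPM in MU12 and 1.93 and 2.91 CPM in MU26 (log2 difference 3.98 ± 0.42 SE, edgeR adjusted p = 0.00058). These enzymes belong to families that oxidise foreign compounds and fatty acids, and the MU12 libraries were on the upper side in each. Cyp6d2 was at 572 and 486 CPM in MU12 and 91.4 and 98.7 CPM in MU26 (log2 difference 2.48 ± 0.11 SE, edgeR adjusted p = 1.0e-05), Cyp12c1 at 449 and 341 CPM in MU12 and 40.1 and 73.3 CPM in MU26 (log2 difference 2.80 ± 0.26 SE, edgeR adjusted p = 0.00030) and Cyp309a1 at 429 and 379 CPM in MU12 and 53.6 and 102 CPM in MU26 (log2 difference 2.38 ± 0.38 SE, edgeR adjusted p = 0.0033), all higher in MU12. Cyp309a2, of the same family, had 6.13 and 8.47 CPM in MU12 and 0.317 and 0.139 CPM in MU26 (log2 difference 4.97 ± 0.43 SE, edgeR adjusted p = 0.00013). Cyp6g1, known for DDT resistance when it is overexpressed, was the most abundant P450 gene and differed little, with 17379 and 17493 CPM in MU12 and 11185 and 12611 CPM in MU26, higher in MU12 with a log2 difference of 0.55 ± 0.14 (SE) and an edgeR adjusted p of 0.022. The genes of the list called higher in MU26 were Cyp310a1, Cyp6a13, Cyp4d1, Cyp303a1 and the cyclophilin gene Cyp1. The last 3 of them differed by less than 2-fold and were not called when MU12 replicate 1 or MU26 replicate 2 was left out. Cyp310a1 was at 28.0 and 26.8 CPM in MU12 and 333 and 324 CPM in MU26, higher in MU26 with a log2 difference of 3.58 ± 0.16 (SE) and an edgeR adjusted p of 1.0e-05, and Cyp6a13 was higher in MU26 by 5.35 ± 0.24 (SE) log2 units. Cyp4p2 was too low to be tested and had 54 and 61 counts in MU12 and 0 and 0 in MU26.

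Fewer genes of the P450 list were called when MU12 replicate 2 or MU26 replicate 1 was left out. The median of the list was between 0.60 and 1.46 over all alternatives. By the same test with 1 library left out, Cyp6g1 lost its call without MU12 replicate 1, MU12 replicate 2 or MU26 replicate 1 (edgeR adjusted p of 0.055 to 0.115). The call of Cyp6g1 ended when the spread came from the 4 libraries alone. Under limma-voom Cyp4ac2 did not pass (adjusted p = 0.08). The calls of Cyp6a17, Cyp4p1, Cyp9b2, Cyp6d2, Cyp12c1, Cyp309a1, Cyp309a2, Cyp4ac1, Cyp310a1 and Cyp6a13 held in every alternative. Cyp6d2, Cyp12c1, Cyp309a1, Cyp309a2, Cyp4ac1, Cyp310a1, Cyp1, Cyp4d1, Cyp303a1 and Cyp4p2 were chosen after their values were seen, and reads of close relatives within the Cyp6a, Cyp4ac and Cyp309a groups may have been discarded where they matched more than 1 gene.

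**Figure D4:**
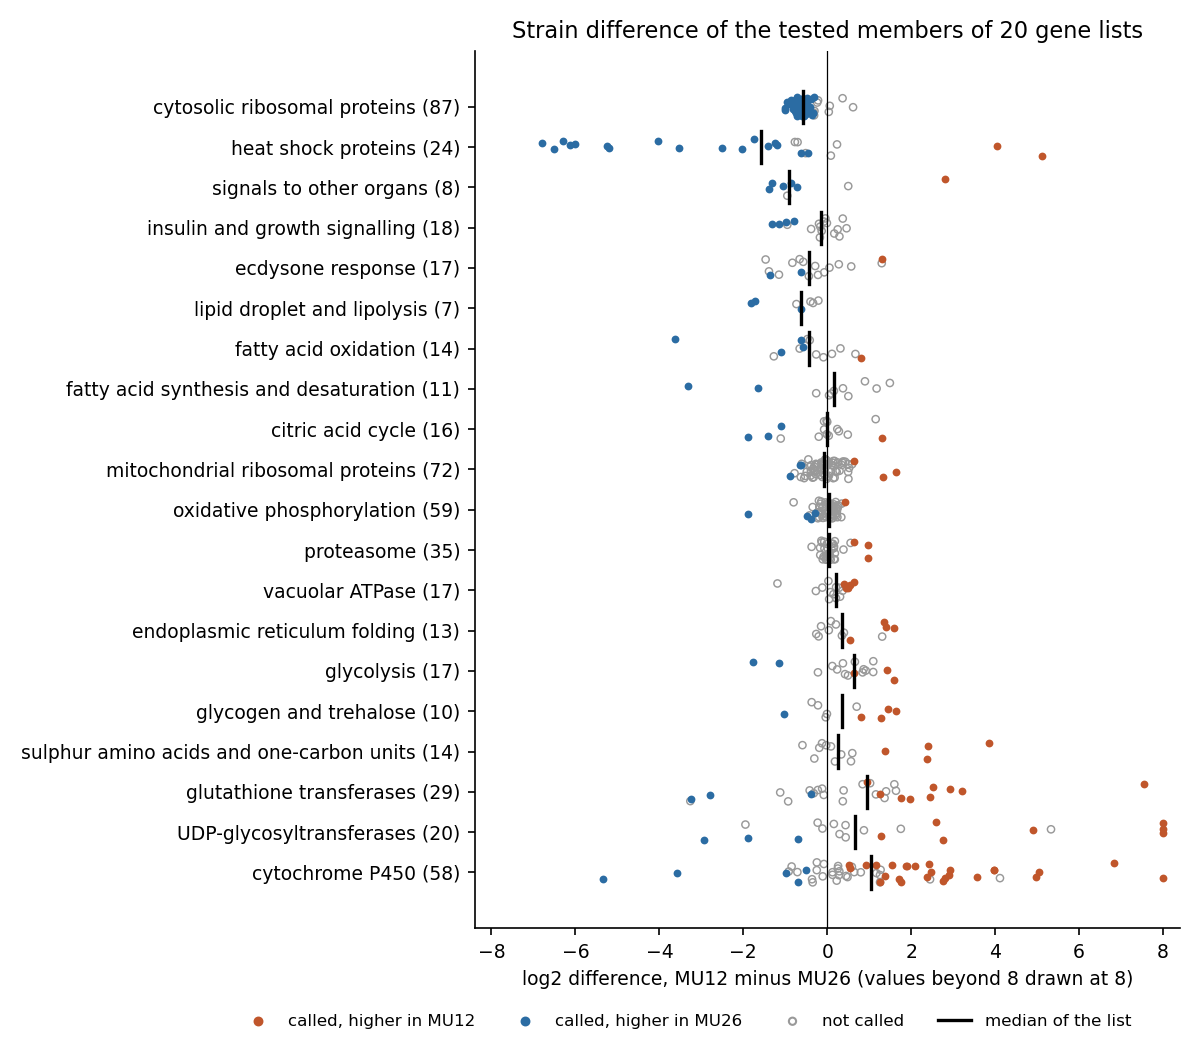
Log2 difference (MU12 minus MU26) of each tested member of 20 gene lists, with the number tested in brackets, filled points for called genes, open points for the others and a bar at the median of the list; values beyond 8 are drawn at 8. Ribosomal protein and heat shock genes lie to the left of 0, with medians of -0.58 and -1.58. Most genes of the P450 list lie to the right, with a median of 1.04, while the proteasome and oxidative phosphorylation lists gather at 0.

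Glutathione transferases, which couple compounds to glutathione, gave 9 genes higher in MU12 and 3 in MU26 out of 29 tested. The called share was 41.4%, against 25.1% of all tested genes, and the median was 0.95. GstD6 was at 9.25 and 16.9 CPM in MU12 and 0.0634 and 0.0694 CPM in MU26, higher in MU12 with a log2 difference of 7.55 ± 1.35 (SE) and an edgeR adjusted p of 0.0011. GstE6 was at 5.47 and 7.80 CPM in MU12 and 0.475 and 0.971 CPM in MU26 (log2 difference 3.20 ± 0.40 SE, edgeR adjusted p = 0.00092), GstE8 at 100.6 and 128 CPM in MU12 and 19.99 and 19.7 CPM in MU26 (log2 difference 2.52 ± 0.30 SE, edgeR adjusted p = 0.00089) and GstD9 at 15.7 and 21.1 CPM in MU12 and 1.71 and 3.16 CPM in MU26 (log2 difference 2.92 ± 0.41 SE, edgeR adjusted p = 0.0018), with both MU12 libraries above both MU26 libraries in each. GstS1, the sigma class enzyme, had 738 and 947 CPM in MU12 and 362 and 508 CPM in MU26, and was higher in MU12 with a log2 difference of 0.95 ± 0.18 (SE) and an edgeR adjusted p of 0.0056. GstO3, an omega class gene, went the other way, with 26.3 and 21.2 CPM in MU12 and 217 and 231 CPM in MU26, higher in MU26 with a log2 difference of 3.24 ± 0.14 (SE) and an edgeR adjusted p of 1.0e-05, as did GstE7, at 7.75 and 14.7 CPM in MU12 and 46.8 and 109 CPM in MU26 (log2 difference 2.79 ± 0.49 SE, edgeR adjusted p = 0.0058). GstE2 fell below the filter with 31 and 29 counts in MU12 and 0 and 2 in MU26. The calls of this list numbered 10 to 11 when 1 library was left out, and GstE8, GstE7 and GstE2 were chosen after their values were seen. With the spread of the 4 libraries alone, GstS1 and GstE7 lost their calls too. Genes of the D and E classes lie in clusters of close copies, so their single levels are uncertain.

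UDP-glycosyltransferases, which attach sugars to compounds, gave 7 genes higher in MU12 and 3 in MU26 out of 20 tested. The called share was 50%, against 25.1% of all tested genes, and the median was 0.66. Ugt49C1 was at 8.12 and 11.3 CPM in MU12 and 0 and 0.0347 CPM in MU26, a ratio of 580 with a counting interval of 104 to 23000 from 1 count in MU26 (edgeR adjusted p = 0.0026). Ugt35A1 had 0.470 and 12.8 CPM in MU12 and 0 and 0 CPM in MU26, at least 125-fold higher in MU12, but its 2 MU12 libraries differed widely. Ugt37A2 was at 0.822 and 2.69 CPM in MU12 and 0 and 0 CPM in MU26, at least 34-fold higher in MU12. Ugt302K1 was at 3.69 and 2.47 CPM in MU12 and 0.0634 and 0.139 CPM in MU26, higher in MU12 with a log2 difference of 4.91 ± 0.59 (SE) and an edgeR adjusted p of 0.00046, and Ugt36D1 at 109 and 71.7 CPM in MU12 and 709.7 and 684 CPM in MU26, higher in MU26 with a log2 difference of 2.95 ± 0.19 (SE) and an edgeR adjusted p of 4.3e-05. The called members of the list numbered 4 with MU12 replicate 2 left out, 3 with MU26 replicate 1 left out and 6 with MU26 replicate 2 left out. Under edgeR with a library left out, Ugt37A2 lost its call without MU26 replicate 1 (edgeR adjusted p = 0.0526) and Ugt35A1 without MU12 replicate 2, MU26 replicate 1 or MU26 replicate 2 (0.117 to 0.174). Ugt35A1 and Ugt37A2 were also not called from the 4 libraries alone.

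Among 17 enzymes that handle reactive oxygen, 3 were higher in MU12 and 2 in MU26 (29.4% called, against 25.1% of all tested genes). Catalase (Cat), which breaks down hydrogen peroxide, had 3193 and 2997 CPM in MU12 and 777 and 1202 CPM in MU26, higher in MU12 with a log2 difference of 1.64 ± 0.18 (SE) and an edgeR adjusted p of 0.00053. Sod3, the extracellular superoxide dismutase, was at 30.1 and 43.1 CPM in MU12 and 9.54 and 13.1 CPM in MU26, higher in MU12 with a log2 difference of 1.69 ± 0.29 (SE) and an edgeR adjusted p of 0.0043. The peroxiredoxin genes Prx6b and Prx6c, which are near-identical copies, were higher in MU26, Prx6b at 67.8 and 106 CPM in MU12 and 541 and 2003 CPM in MU26 (log2 difference 3.87 ± 0.55 SE, edgeR adjusted p = 0.0028) and Prx6c at 89.7 and 122 CPM in MU12 and 462 and 1588 CPM in MU26 (log2 difference 3.27 ± 0.53 SE, edgeR adjusted p = 0.0045). Of 12 genes of iron and metal handling, 4 were higher in MU26 and 1 in MU12 (41.7% called), with a median of -0.28. Most of these calls ended when either MU12 library was left out. Without MU26 replicate 2 more genes were called higher in MU12 than in MU26, while the median was -0.30. The ferritin heavy chain gene Fer1HCH, chosen after its values were seen, had 514 and 445 CPM in MU12 and 823 and 771 CPM in MU26, higher in MU26 with a log2 difference of 0.73 ± 0.13 (SE) and an edgeR adjusted p of 0.0045. The metallothionein genes MtnA and MtnD, whose proteins bind heavy metals, were higher in MU26, with 5.57 and 15.8 CPM in MU12 and 31.7 and 130.4 CPM in MU26 for MtnA and 2.89 and 3.48 CPM in MU12 and 15.6 and 36.6 CPM in MU26 for MtnD, and the MU26 libraries of MtnA lay far apart. When libraries were left out in turn, MtnA and MtnD lost their calls without MU12 replicate 1, MU12 replicate 2 or MU26 replicate 2 (edgeR adjusted p of 0.07 to 0.247). Estimated from the 4 libraries alone, the spread left MtnA, Fer1HCH, Prx6b and Prx6c uncalled.

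Genes of fat synthesis and storage did not move as a block. Of 11 genes of fatty acid synthesis, Desat1 and FASN1 were called (18.2%, against 25.1% of all tested genes), both higher in MU26. The fitted difference lay above 0, with MU12 higher, in 8 of the 11. The median of the list was 0.16, and -0.34 with MU12 replicate 2 left out. FASN1, the main fatty acid synthase of the fat body, was at 119.8 and 136 CPM in MU12 and 446 and 353 CPM in MU26, higher in MU26 with a log2 difference of 1.64 ± 0.23 (SE) and an edgeR adjusted p of 0.0019. Desat1, the delta-9 desaturase, was higher in MU26 by 3.33 ± 0.33 (SE) log2 units, whereas ACC, whose enzyme makes the malonyl-CoA used by the synthase, had 16.3 and 26.5 CPM in MU12 and 24.4 and 15.7 CPM in MU26, with overlapping libraries. Of 7 tested lipogenic regulators, sug and Mondo were higher in MU26 (28.6%, against 25.1% called of all tested genes). The sugar-responsive factor sugarbabe (sug) was at 5.73 and 1.603 CPM in MU12 and 108 and 44.0 CPM in MU26, higher in MU26 with a log2 difference of 4.36 ± 0.87 (SE) and an edgeR adjusted p of 0.013, while SREBP, the regulator of lipid synthesis genes, was at 110.4 and 143 CPM in MU12 and 78.8 and 98.2 CPM in MU26 and did not pass the test (edgeR adjusted p = 0.085). Of 7 lipid droplet and lipolysis genes 3 were higher in MU26 and none in MU12 (42.9% called), with a median of -0.62. The gene dob, a lipase related to brummer, was at 5.96 and 9.59 CPM in MU12 and 22.7 and 28.9 CPM in MU26, higher in MU26 with a log2 difference of 1.73 ± 0.25 (SE) and an edgeR adjusted p of 0.0020, and Lsd-1, the perilipin that coats lipid droplets, was higher by 1.82 ± 0.21 (SE) log2 units. The brummer lipase gene bmm had 104 and 97.9 CPM in MU12 and 133 and 202 CPM in MU26 and did not pass (edgeR adjusted p = 0.085). Among 14 tested genes of glycerolipid and phospholipid synthesis 14.3% were called. Agpat3 was higher in MU26 with a log2 difference of 0.91 ± 0.14 (SE) and an edgeR adjusted p of 0.0027. The ethanolamine kinase gene eas was higher in MU12 with a log2 difference of 1.18 ± 0.27 (SE) and an edgeR adjusted p of 0.014. On leaving out single libraries, sug and eas lost their calls without MU12 replicate 2 or MU26 replicate 1 (edgeR adjusted p of 0.0529 to 0.0882) and Mondo without any 1 of the 4 libraries (0.0524 to 0.193). With the 4 libraries alone the calls of sug, eas, Agpat3 and Mondo ended as well.

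Of 11 genes of lipid transport 3 were higher in MU12 and 2 in MU26 (45.5% called, against 25.1% of all tested genes). The fatty acid binding protein gene fabp was at 1325 and 1342 CPM in MU12 and 242 and 379 CPM in MU26, higher in MU12 with a log2 difference of 2.10 ± 0.27 (SE) and an edgeR adjusted p of 0.0013. The lipophorin receptor gene LpR2 had 2.47 and 1.90 CPM in MU12 and 9.44 and 8.53 CPM in MU26, higher in MU26 with a log2 difference of 2.04 ± 0.32 (SE) and an edgeR adjusted p of 0.0027. The lipocalin gene NLaz, chosen after its values were seen and known as a brake on growth and insulin signalling, was at 263 and 85.7 CPM in MU12 and 862 and 358 CPM in MU26, higher in MU26 with a log2 difference of 1.81 ± 0.51 (SE) and an edgeR adjusted p of 0.037, and apolpp, the main lipoprotein of the haemolymph, was at 18125 and 20203 CPM in MU12 and 19173 and 14188 CPM in MU26, with overlapping libraries. Of 14 genes of fatty acid oxidation 4 were higher in MU26 and 1 in MU12 (35.7% called), with a median of -0.45. This direction rested on MU26 replicate 2, since without that library the median was 0.02, with 2 genes higher in MU12 and 1 in MU26. Acox57D-p, an oxidase of the peroxisome, was at 4.13 and 7.85 CPM in MU12 and 41.7 and 107 CPM in MU26, higher in MU26 with a log2 difference of 3.64 ± 0.42 (SE) and an edgeR adjusted p of 0.00091. Here the 2 MU26 libraries were themselves apart, yet both were above both MU12 libraries. Of 6 genes of the storage protein list the receptor gene Fbp1 and Fbp2, neither of them a hexamerin gene, were higher in MU26 (33.3% called). The hexamerin genes Lsp1alpha, Lsp1beta, Lsp1gamma and Lsp2 did not pass the test, with log2 differences (MU12 minus MU26) of 1.97, 0.52, 0.82 and 0.13. Lsp2 had 43589 and 45658 CPM in MU12 and 41862 and 39582 CPM in MU26. Lsp1alpha had 8605 and 20759 CPM in MU12 and 2882 and 4628 CPM in MU26 (edgeR adjusted p = 0.072), and its MU12 libraries differed more than 2-fold. With DESeq2 1 gene of the list was called higher in MU12. The number of called genes of lipid transport was 2 with MU26 replicate 1 left out, and that of fatty acid oxidation 2 with MU12 replicate 1 left out and 3 with MU26 replicate 2 left out. With fewer libraries, Fbp2 lost its call without MU12 replicate 1 (edgeR adjusted p = 0.0522) or MU26 replicate 2 (0.0856) and NLaz without MU12 replicate 2 (0.128) or MU26 replicate 1 (0.222). The calls of NLaz, Fbp2 and Fbp1 ended when the spread came from the 4 libraries alone.

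Of 17 glycolytic genes 3 were higher in MU12 and 2 in MU26 (29.4% called, against 25.1% of all tested genes). The median was 0.63, or 0.185 with MU12 replicate 2 left out. Pyruvate kinase (PyK), the last step, was at 71.7 and 52.6 CPM in MU12 and 254 and 170.3 CPM in MU26, higher in MU26 with a log2 difference of 1.77 ± 0.31 (SE) and an edgeR adjusted p of 0.0051. Triose phosphate isomerase (Tpi) had 255 and 439 CPM in MU12 and 84.4 and 148 CPM in MU26, higher in MU12 with a log2 difference of 1.58 ± 0.37 (SE) and an edgeR adjusted p of 0.016. Pepck1, of gluconeogenesis, was at 1205 and 1636 CPM in MU12 and 2125 and 4166 CPM in MU26 and was higher in MU26 (log2 difference 1.15 ± 0.32 SE, edgeR adjusted p = 0.033). Of 10 glycogen and trehalose genes 4 were higher in MU12 and 1 in MU26 (50% called, against 25.1% of all tested genes). Those higher in MU12 included enzymes of both making and breaking glycogen. Glycogen phosphorylase (Glyp), which releases glucose units, had 76.3 and 129.7 CPM in MU12 and 30.1 and 35.8 CPM in MU26, higher in MU12 with a log2 difference of 1.64 ± 0.31 (SE) and an edgeR adjusted p of 0.0069. The branching enzyme gene AGBE was at 29.5 and 64.7 CPM in MU12 and 12.4 and 22.1 CPM in MU26, higher in MU12 with a log2 difference of 1.45 ± 0.41 (SE) and an edgeR adjusted p of 0.034. The trehalose transporter gene Tret1-1, which exports the blood sugar made in the fat body, had 504 and 403 CPM in MU12 and 871 and 986 CPM in MU26, higher in MU26 with a log2 difference of 1.03 ± 0.14 (SE) and an edgeR adjusted p of 0.0011. Of 16 genes of the citric acid cycle 3 were higher in MU26 and 1, the fumarase gene Fum1, in MU12. This share of 25% was no larger than the 25.1% of all tested genes, and the median was -0.01. Citrate synthase (kdn) was at 8.99 and 8.77 CPM in MU12 and 27.1 and 20.4 CPM in MU26, higher in MU26 with a log2 difference of 1.42 ± 0.17 (SE) and an edgeR adjusted p of 0.00075, and the aconitase gene mAcon1 at 127 and 101.01 CPM in MU12 and 266 and 221 CPM in MU26 (log2 difference 1.10 ± 0.14 SE, edgeR adjusted p = 0.00095). SdhA, a subunit of succinate dehydrogenase, was higher in MU26 by 1.88 ± 0.10 (SE) log2 units, while its partner SdhB was at 50.6 and 55.7 CPM in MU12 and 52.9 and 50.8 CPM in MU26, without a difference that passed (edgeR adjusted p = 0.82). The number of called glycolytic genes was 9 with MU12 replicate 1 left out and 2 with MU12 replicate 2 or MU26 replicate 1 left out, and that of glycogen and trehalose genes 2 with MU12 replicate 2 or MU26 replicate 1 left out. In leave-one-out fits with edgeR, Fum1 lost its call without MU12 replicate 1 (edgeR adjusted p = 0.0556) or MU12 replicate 2 (0.111), Tpi and AGBE without MU12 replicate 2 or MU26 replicate 1 (0.0916 to 0.222) and Pepck1 without MU12 replicate 1, MU12 replicate 2 or MU26 replicate 2 (0.0612 to 0.206). With the spread of the 4 libraries alone, Tpi, Pepck1, AGBE, Glyp, Tret1-1, mAcon1 and Fum1 lost their calls too.

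In the metabolism of sulphur amino acids and methyl groups 4 of 14 genes were called, all higher in MU12, with a median of 0.26. The called share of 28.6% was near the 25.1% of all tested genes. Sam-S, which makes the methyl donor S-adenosylmethionine, had 197 and 347 CPM in MU12 and 43.2 and 62.0 CPM in MU26, higher in MU12 with a log2 difference of 2.37 ± 0.32 (SE) and an edgeR adjusted p of 0.0016. Gnmt, which spends S-adenosylmethionine on glycine, was at 124 and 238 CPM in MU12 and 11.3 and 13.9 CPM in MU26, higher in MU12 with a log2 difference of 3.84 ± 0.39 (SE) and an edgeR adjusted p of 0.00056. Cbs, which leads homocysteine toward cysteine, had 5.21 and 4.67 CPM in MU12 and 1.55 and 2.25 CPM in MU26, higher in MU12 with a log2 difference of 1.38 ± 0.31 (SE) and an edgeR adjusted p of 0.014, and Cth, the next enzyme of that route, was higher by 2.40 ± 0.25 (SE) log2 units. The 2 libraries of MU12 were above those of MU26 in all 4 genes. Of 13 tested genes of amino acid breakdown and synthesis 23.1% were called. Arginase (arg) was at 18.4 and 51.1 CPM in MU12 and 2.09 and 4.09 CPM in MU26, higher in MU12 with a log2 difference of 3.49 ± 0.53 (SE) and an edgeR adjusted p of 0.0030. Glutamine synthetase 1 (Gs1) had 3893 and 2819.6 CPM in MU12 and 7742 and 7558 CPM in MU26, higher in MU26 with a log2 difference of 1.19 ± 0.14 (SE) and an edgeR adjusted p of 0.00083, and Faa, of tyrosine breakdown, was higher in MU12 by 1.24 ± 0.37 (SE) log2 units (edgeR adjusted p = 0.038). By the same test with 1 library left out, Cbs lost its call without MU26 replicate 1 (edgeR adjusted p = 0.0916) and Faa without MU12 replicate 1, MU12 replicate 2 or MU26 replicate 1 (0.0894 to 0.145). Cbs, arg, Gs1 and Faa were also not called from the 4 libraries alone.

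**Figure D5:**
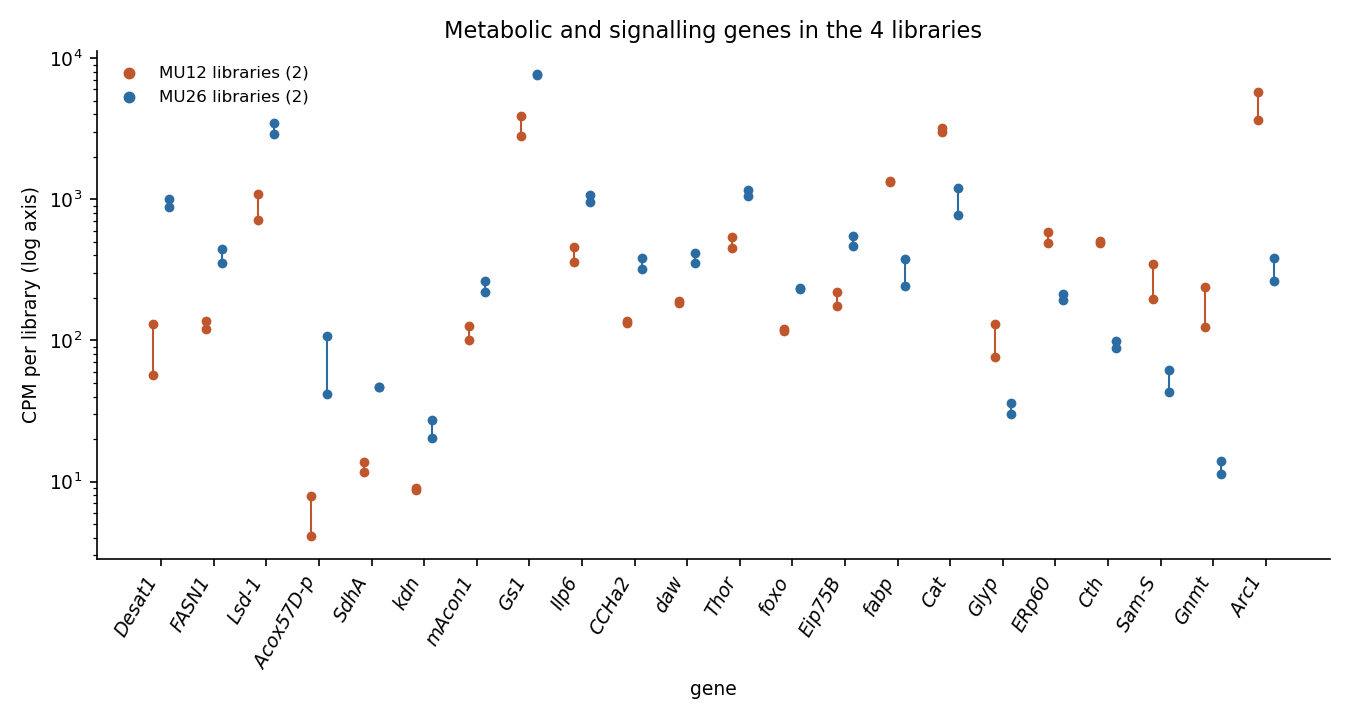
CPM on a log axis of 22 metabolic and signalling genes in each of the 4 libraries, MU12 on the left and MU26 on the right of each gene, with a line that spans the 2 libraries of a strain. From Desat1 to Eip75B both MU26 libraries lie above both MU12 libraries, and from fabp to Arc1 both MU12 libraries lie above.

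Of 18 genes of insulin and growth signalling 4 were called (22.2%), a share no larger than the 25.1% of all tested genes, and all 4 were higher in MU26. The same number was called with each library left out and with the 4 libraries alone, while the median of the list was -0.15. Thor, which encodes the translation inhibitor 4E-BP and is a target of foxo, was at 453 and 541 CPM in MU12 and 1048 and 1164 CPM in MU26, higher in MU26 with a log2 difference of 1.15 ± 0.13 (SE) and an edgeR adjusted p of 0.00050. The transcription factor gene foxo, whose product is held back by insulin signalling, had 117 and 119.6 CPM in MU12 and 232 and 235 CPM in MU26, higher in MU26 with a log2 difference of 0.98 ± 0.16 (SE) and an edgeR adjusted p of 0.0031. Rheb, the activator of TOR, was at 41.6 and 40.4 CPM in MU12 and 71.5 and 71.2 CPM in MU26, higher in MU26 with a log2 difference of 0.80 ± 0.10 (SE) and an edgeR adjusted p of 0.00085. Ilp6, the insulin-like peptide of the fat body, was higher by 1.32 ± 0.17 (SE) log2 units, so that the list held called genes that promote growth as well as genes that restrain it. Of 8 genes for signals to other organs 5 were higher in MU26 and 1, the gene fit, in MU12. The called share was 75%, against 25.1% of all tested genes, and fewer were called with MU26 replicate 2 left out. The median log2 difference was -0.91, and -0.76 without that library. CCHa2, a peptide that acts on the insulin-producing cells of the brain, had 132 and 137 CPM in MU12 and 381 and 323 CPM in MU26, higher in MU26 with a log2 difference of 1.39 ± 0.12 (SE) and an edgeR adjusted p of 0.00020. The activin-like ligand gene daw was at 192 and 184 CPM in MU12 and 354 and 419 CPM in MU26, higher in MU26 with a log2 difference of 1.04 ± 0.16 (SE) and an edgeR adjusted p of 0.0021. The growth-blocking peptide gene Gbp1 was at 142 and 89.4 CPM in MU12 and 181 and 242 CPM in MU26 and Gbp2 at 482 and 568 CPM in MU12 and 767 and 961 CPM in MU26, both higher in MU26 (edgeR adjusted p = 0.023 and 0.019), and the satiety peptide gene fit was at 0.587 and 1.30 CPM in MU12 and 0.158 and 0.104 CPM in MU26, higher in MU12 with a log2 difference of 2.80 ± 0.73 (SE) and an edgeR adjusted p of 0.018. Under edgeR with a library left out, Gbp2 lost its call without MU12 replicate 1 (edgeR adjusted p = 0.0829) or MU26 replicate 2 (0.107), Gbp1 without MU12 replicate 2 (0.0976) or MU26 replicate 2 (0.122) and fit without MU12 replicate 2, MU26 replicate 1 or MU26 replicate 2 (0.0689 to 0.0958). Estimated from the 4 libraries alone, the spread left Gbp1, Gbp2 and fit uncalled.

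Ecdysone triggers the wandering stage and metamorphosis, and its early genes are used as markers of developmental time. Of 17 tested genes of the ecdysone response 2 were higher in MU26 and 1 in MU12, with a median of -0.44. The called share was 17.6%, against 25.1% of all tested genes. The early gene Eip75B, a nuclear receptor, had 219 and 175 CPM in MU12 and 468 and 547 CPM in MU26, higher in MU26 with a log2 difference of 1.36 ± 0.16 (SE) and an edgeR adjusted p of 0.00062. Eip74EF was at 249.5 and 217 CPM in MU12 and 379 and 335 CPM in MU26, higher in MU26 with a log2 difference of 0.61 ± 0.17 (SE) and an edgeR adjusted p of 0.034, and ftz-f1, which is expressed between ecdysone pulses, was at 1.503 and 3.26 CPM in MU12 and 0.887 and 1.04 CPM in MU26, higher in MU12 with a log2 difference of 1.30 ± 0.40 (SE) and an edgeR adjusted p of 0.043. The broad gene (br) was at 903 and 749 CPM in MU12 and 1133 and 1105 CPM in MU26 and did not pass (edgeR adjusted p = 0.13). The number of called ecdysone response genes was 8 with MU12 replicate 1 left out and 1 with MU12 replicate 2, MU26 replicate 1 or MU26 replicate 2 left out. When libraries were left out in turn, ftz-f1 lost its call without MU12 replicate 2, MU26 replicate 1 or MU26 replicate 2 (edgeR adjusted p of 0.104 to 0.285) and Eip74EF without any 1 of the 4 libraries (0.0528 to 0.158). With the 4 libraries alone the calls of Eip74EF and ftz-f1 ended as well. Of 22 tested autophagy genes 2 were higher in MU12 and 2 in MU26 (18.2% called). Atg1, the kinase that starts autophagy, was at 456 and 372 CPM in MU12 and 236 and 281 CPM in MU26, higher in MU12 with a log2 difference of 0.68 ± 0.20 (SE) and an edgeR adjusted p of 0.037, and Atg2 at 135 and 126 CPM in MU12 and 223 and 206 CPM in MU26, higher in MU26 with a log2 difference of 0.72 ± 0.19 (SE) and an edgeR adjusted p of 0.028, and without MU26 replicate 1 none of the list was called. Atg8a, which coats the autophagosome, had 646 and 689 CPM in MU12 and 517 and 689.5 CPM in MU26. On leaving out single libraries, Atg1 lost its call without MU12 replicate 1, MU26 replicate 1 or MU26 replicate 2 (edgeR adjusted p of 0.0528 to 0.159) and Atg2 without any 1 of the 4 libraries (0.0653 to 0.12). The calls of Atg1 and Atg2 ended when the spread came from the 4 libraries alone.

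Among immune genes, 6.67% of the antimicrobial peptide genes, 10.5% of the Toll and Imd signalling genes and 31.2% of the peptidoglycan recognition genes were called, against 25.1% of all tested genes. Of 15 tested antimicrobial peptide genes only AttC was called, at 109 and 62.6 CPM in MU12 and 4.12 and 1.91 CPM in MU26, higher in MU12 with a log2 difference of 4.83 ± 1.14 (SE) and an edgeR adjusted p of 0.027. Drosomycin (Drs), the antifungal peptide of the Toll pathway, was at 700.0 and 659.5 CPM in MU12 and 548 and 2300.5 CPM in MU26, with 1 MU26 library above and 1 below both MU12 libraries. None of 15 tested bomanin and daisho genes, which are short Toll-induced peptides, passed in edgeR, DESeq2 or limma-voom, and 0 had an unadjusted p below 0.05 in edgeR, although the median was 1.57, and this median lay between 0.28 and 5.99 when single libraries were left out. Of 16 genes of peptidoglycan recognition 2 were higher in MU12 and 3 in MU26. The gene pirk, a brake on the Imd pathway, had 11.9 and 4.78 CPM in MU12 and 132 and 107 CPM in MU26, higher in MU26 with a log2 difference of 3.84 ± 0.49 (SE) and an edgeR adjusted p of 0.0015. GNBP1, a recognition protein of the Toll pathway, was at 16.9 and 22.1 CPM in MU12 and 6.65 and 6.31 CPM in MU26, higher in MU12 with a log2 difference of 1.59 ± 0.24 (SE) and an edgeR adjusted p of 0.0025. Of 19 tested genes of Toll and Imd signalling, imd, the adaptor of its pathway, had 34.3 and 21.4 CPM in MU12 and 60.4 and 45.3 CPM in MU26 and was higher in MU26 (log2 difference 0.93 ± 0.22 SE, edgeR adjusted p = 0.017), and Tab2 was higher in MU12 by 0.52 ± 0.12 (SE) log2 units (edgeR adjusted p = 0.015). Of 12 genes of the Turandot and JAK-STAT list TotB and et were higher in MU26 (16.7% called). The receptor gene et, which restrains JAK-STAT signalling, was at 22.5 and 24.4 CPM in MU12 and 44.95 and 46.8 CPM in MU26, higher in MU26 with a log2 difference of 0.97 ± 0.15 (SE) and an edgeR adjusted p of 0.0028, and the stress peptide gene TotA was at 1153 and 934 CPM in MU12 and 1169 and 1566 CPM in MU26 and did not pass. Haemocytes, the blood cells, cling to the fat body. Of their 10 marker genes 3 (PPO1, PPO2 and crq) were higher in MU12 and 1 (He) in MU26 (40% called). The 10 genes summed to 146 and 169 CPM in MU12 and 93.6 and 93.7 CPM in MU26. PPO2, of crystal cells, was at 16.2 and 28.5 CPM in MU12 and 3.83 and 6.14 CPM in MU26, and the phagocytic receptor gene crq at 90.6 and 79.2 CPM in MU12 and 53.2 and 44.8 CPM in MU26, both higher in MU12 and chosen after their values were seen (log2 differences 2.17 ± 0.40 (SE) and 0.79 ± 0.12 (SE), edgeR adjusted p = 0.0060 and 0.0024). In bulk tissue, fewer haemocytes and less RNA per haemocyte cannot be told apart, and the part of haemocytes in the other differences was not tested. The median log2 difference of the 10 genes was 0.68, and with MU12 replicate 2 left out it was 0.17 and 2 of them were called, He not among them. With fewer libraries, Tab2 lost its call without MU12 replicate 1 (edgeR adjusted p = 0.0629) or MU26 replicate 1 (0.0681), imd without MU12 replicate 2 (0.0713) or MU26 replicate 1 (0.1), TotB without MU12 replicate 1, MU12 replicate 2 or MU26 replicate 2 (0.0701 to 0.124) and AttC without any 1 of the 4 libraries (0.0501 to 0.126). With the spread of the 4 libraries alone, imd, Tab2, crq, PPO1 and He lost their calls too. The number of called recognition genes was 2 with MU12 replicate 2 left out and 3 with MU26 replicate 1 or MU26 replicate 2 left out.

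Secreted proteins are folded in the endoplasmic reticulum. Of 13 genes of this function 4 were called (30.8%, against 25.1% of all tested genes), all of them higher in MU12, with a median of 0.35. Among them Xbp1, with a log2 difference of 0.55 ± 0.17 (SE) and an edgeR adjusted p of 0.048, lost its call in every alternative except DESeq2. ERp60, a protein disulphide isomerase, was at 489.8 and 583 CPM in MU12 and 194 and 213 CPM in MU26, higher in MU12 with a log2 difference of 1.40 ± 0.18 (SE) and an edgeR adjusted p of 0.00099. CaBP1, of the same family, was at 109 and 160.4 CPM in MU12 and 55.1 and 49.9 CPM in MU26, higher in MU12 with a log2 difference of 1.36 ± 0.24 (SE) and an edgeR adjusted p of 0.0052, and Gp93, the Hsp90 of this compartment, at 419 and 749.9 CPM in MU12 and 171 and 219.9 CPM in MU26 (log2 difference 1.58 ± 0.31 SE, edgeR adjusted p = 0.0080). So Hsp90 relatives differed in opposite directions, Hsp83 of the cytosol being higher in MU26 and Gp93 in MU12. Of 17 tested subunits of the vacuolar ATPase, which acidifies lysosomes, 5 were higher in MU12 and none in MU26, or 3 with MU26 replicate 2 left out. The 5 called were 29.4% of these subunits, against 25.1% of all tested genes. Vha26 had 154 and 141 CPM in MU12 and 104 and 105 CPM in MU26, higher in MU12 with a log2 difference of 0.49 ± 0.10 (SE) and an edgeR adjusted p of 0.0098. No subunit was called with the 4 libraries alone. Few genes of the proteasome and of oxidative phosphorylation were called, 8.57% and 8.47%, against 25.1% of all tested genes. With single libraries left out, the median log2 difference lay between -0.19 and 0.26 for the proteasome list. For the oxidative phosphorylation list it lay between -0.04 and 0.14. Of 35 tested proteasome genes 3 were higher in MU12, with a median of 0.04, among them Prosalpha1 and its near-identical copy Prosalpha1R, Prosalpha1 at 64.1 and 50.5 CPM in MU12 and 27.2 and 31.0 CPM in MU26 (log2 difference 0.98 ± 0.14 SE, edgeR adjusted p = 0.0015). Of 59 genes of oxidative phosphorylation 4 were higher in MU26 and 1 in MU12, with a median of 0.04, and besides SdhA the differences of the called genes were small, ATPsynbeta for one being at 187 and 216 CPM in MU12 and 289 and 273 CPM in MU26 (log2 difference 0.48 ± 0.12 SE, edgeR adjusted p = 0.017). The number of called folding genes was 2 with MU26 replicate 1 left out, and that of oxidative phosphorylation genes 2 with MU12 replicate 1, MU12 replicate 2 or MU26 replicate 2 left out and 3 with MU26 replicate 1 left out. In leave-one-out fits with edgeR, Gp93 lost its call without MU26 replicate 1 (edgeR adjusted p = 0.0573) and ATPsynbeta without MU12 replicate 1 (0.072) or MU26 replicate 1 (0.088). Gp93, Vha26, Prosalpha1, Prosalpha1R and ATPsynbeta were also not called from the 4 libraries alone.

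Genes outside these functions included the Arc genes, homologues of a neuronal gene whose protein forms capsids. Arc2 was at 33.2 and 24.2 CPM in MU12 and 5.83 and 7.88 CPM in MU26, higher in MU12 with a log2 difference of 2.07 ± 0.22 (SE) and an edgeR adjusted p of 0.00050, in the same direction as Arc1, for which the difference was 3.87 ± 0.26 (SE) log2 units, and both calls held in every alternative. Of the 9 tested candidate genes that the study drew up, Cyp9b2 and Cyp28d1 were called (22.2%, against 25.1% of all tested genes), both higher in MU12. Cyp28d1 had 691 and 921 CPM in MU12 and 87.5 and 346 CPM in MU26, higher in MU12 with a log2 difference of 1.89 ± 0.55 (SE) and an edgeR adjusted p of 0.041. The fezzik gene fiz was at 173 and 68.5 CPM in MU12 and 57.9 and 47.8 CPM in MU26 and Baldspot, a fatty acid elongase, at 28.6 and 32.5 CPM in MU12 and 11.97 and 15.1 CPM in MU26, and neither passed (edgeR adjusted p = 0.075 and 0.090). The homeodomain genes achi and vis are near-identical copies and were at 2.04 and 1.03 CPM in MU12 and 3.07 and 1.46 CPM in MU26 and at 0.117 and 0.0272 CPM in MU12 and 0.158 and 0.0347 CPM in MU26, with overlapping libraries. Of 13 tested cuticle protein genes only Cpr49Ac was called (7.69%). It was at 5682 and 5281 CPM in MU12 and 8244 and 7761 CPM in MU26, higher in MU26 with a log2 difference of 0.55 ± 0.16 (SE) and an edgeR adjusted p of 0.039. By the same test with 1 library left out, Cyp28d1 lost its call without MU12 replicate 1, MU12 replicate 2 or MU26 replicate 1 (edgeR adjusted p of 0.0609 to 0.145) and Cpr49Ac without any 1 of the 4 libraries (0.0768 to 0.162). Estimated from the 4 libraries alone, the spread left Cyp28d1 and Cpr49Ac uncalled.

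Among the 200 genes with the highest mean level over the 4 libraries, 116 were called, 11 higher in MU12 and 105 higher in MU26, and 55 of the latter were ribosomal protein genes. Of all tested genes 25.1% were called, 13.2% higher in MU12 and 11.9% higher in MU26. The scaled CPM of all tested genes summed to 934430 and 971470 in MU12 and 1150900 and 1201100 in MU26. The part of these unequal sums in the direction of the abundant genes was not tested. Without ribosomal protein genes 61 of 143 were called, 11 higher in MU12 and 50 in MU26. LanA, a laminin chain of the basement membrane, was at 714 and 540.2 CPM in MU12 and 2482 and 1572 CPM in MU26, higher in MU26 with a log2 difference of 1.69 ± 0.21 (SE) and an edgeR adjusted p of 0.0011. The kinase gene for (foraging), known for feeding behaviour and fat storage, had 496 and 342 CPM in MU12 and 1168 and 912 CPM in MU26, higher in MU26 with a log2 difference of 1.31 ± 0.24 (SE) and an edgeR adjusted p of 0.0052. CG31775 was at 1471 and 2056 CPM in MU12 and 4618 and 4423 CPM in MU26 (log2 difference 1.36 ± 0.19 SE, edgeR adjusted p = 0.0017) and CG16926 at 911 and 863 CPM in MU12 and 2328 and 1948 CPM in MU26 (log2 difference 1.27 ± 0.14 SE, edgeR adjusted p = 0.00059), both higher in MU26 and without a role assigned here. In the other direction, CG34166 was at 19775 and 21472 CPM in MU12 and 5969 and 6840.3 CPM in MU26, higher in MU12 with a log2 difference of 1.69 ± 0.19 (SE) and an edgeR adjusted p of 0.00056. The clotting protein gene fon (fondue) was at 2580.3 and 4382 CPM in MU12 and 893 and 1226 CPM in MU26, higher in MU12 with a log2 difference of 1.72 ± 0.36 (SE) and an edgeR adjusted p of 0.011, and Tig, an extracellular ligand of integrins, at 1053 and 1598 CPM in MU12 and 544 and 520.2 CPM in MU26 (log2 difference 1.32 ± 0.34 SE, edgeR adjusted p = 0.026). The virus-induced gene vir-1 had 1009 and 823 CPM in MU12 and 535 and 549.7 CPM in MU26, higher in MU12 with a log2 difference of 0.76 ± 0.12 (SE) and an edgeR adjusted p of 0.0025. Under edgeR with a library left out, fon lost its call without MU12 replicate 2 (edgeR adjusted p = 0.0656) or MU26 replicate 1 (0.0744) and Tig without MU12 replicate 2, MU26 replicate 1 or MU26 replicate 2 (0.0974 to 0.143). With the 4 libraries alone the calls of fon, Tig, for and vir-1 ended as well. The median log2 difference was 0.01, 0.01, 0.01 and -0.01 in 4 groups of equal size from the shortest to the longest genes.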

How the data were processed

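Poly-A RNA of late wandering fat bodies was sequenced from 11 pools, 2 each of MU12 and MU26. The authors mapped read pairs to the FlyBase transcriptome with NextGenMap, discarded pairs that matched several genes equally well, and deposited counts per gene, summed over transcripts, with total counts of 34631482 to 49582725 per library and a gene length that was used only to group genes. Reads of near-identical copies are thus partly missing. The aligner's version is not given in the sources used here.

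Genes with a mean count of at least 15 over the 11 libraries were kept (8415 of 13931). Counts were scaled by TMM and fitted with 1 coefficient per strain by the quasi-likelihood test of edgeR 4.0.16 in R 4.3.3 (common biological coefficient of variation 0.225), and the contrast of MU12 with MU26 was adjusted over all tested genes, with calls at an adjusted p below 0.05. The spread rests on the replicates of all 5 strains. CPM use these scaled library sizes, log2 differences are fitted values, and SE is that of the fit. The script was tested on simulated data. Alternatives were DESeq2 1.42.0, limma-voom (limma 3.58.1), other scalings and filters, fewer libraries and the replicate number as a block. Where a strain had no count, a floor of 3 counts over its libraries was used. Intervals at 95% are exact and cover counting error only. Tables and plots were made with Python 3.11.15, pandas 2.3.3, SciPy 1.17.1 and matplotlib 3.10.9.

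Symbols and coordinates were taken from Ensembl (assembly BDGP6), matched by FlyBase identifier for 13843 genes and by CG number for 75, and 13 kept their CG number. The members and the 47 gene lists (37 of them no marker lists) were chosen with earlier results of these data known. Genes named were taken from the 10 per direction with the widest called difference at 10 CPM or more in the higher strain and no overlap of libraries, 10 called per direction among the 200 most abundant, up to 4 called members of each list that is no marker list with its most abundant member, all members of lists of up to 10, candidate genes of the study, and genes at 0 counts in both libraries of 1 strain and at least 10 CPM in the other. Genes named outside this rule, marker genes among them, were chosen after their values were seen.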

Additional observations from a re-analysis of the deposited data

How the results depend on the processing

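Of the 2108 genes called, the number fell to 617 when the spread was estimated from the 4 libraries of MU12 and MU26 alone, which leaves 2 residual degrees of freedom, with 575 of at least 2-fold difference and 65.3% higher in MU12. Leaving out 1 library gave 1322 to 1942 calls, 806 to 1188 of them at least 2-fold and 50.2% to 54.9% higher in MU12, with the lowest counts when MU12 replicate 2 (1322) or MU26 replicate 1 (1358) was left out, where the lone library is assumed to vary like the other strains. Other tests, scalings and filters, and the fit without MU17, gave 1901 (limma-voom) to 2463 (DESeq2) calls. No called gene named in the text turned its direction under any alternative. Replicate numbers are shared by the strains but pair nothing in the labels. Deviations of the replicates 1 of MU12 and MU26 correlated at 0.248 over genes, and those of all 10 pairs of strains at -0.303 to 0.268, so the numbers were not taken as pairs. With the number as a replicate block there were 1794 calls, 1010 of them at least 2-fold and 52.8% higher in MU12. With 2 pools per strain, a difference that missed the threshold is not shown to be absent, and genes below the filter were not tested.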
